A study of Rattus norvegicus with 3 samples.

Results

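The aryl hydrocarbon receptor, a set of the genes it controls and the xenobiotic enzymes that stand with them were followed in neonatal rat heart muscle cells. The set holds 10 genes: the receptor gene Ahr, its partner Arnt, the repressors Ahrr and Tiparp, the cytochrome P450 genes Cyp1a1 and Cyp1b1, the P450 reductase gene Por, and Nqo1, Aldh3a1 and Aldh1a3. The genes were chosen by name with the measured ratios of these same arrays already known, so their levels are given as a description and with no test. Every array probe whose accession belongs to a listed rat gene in RefSeq was taken. Of the 10 genes, 9 had a probe, each exactly 1, and no probe matched Tiparp. Of those 9, 8 were well above background on all 3 arrays, out of 11597 genes with that property and 15168 genes with a matched probe.

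Transcripts were measured in primary ventricular cardiomyocytes of newborn rats on Agilent 1-colour arrays, to learn how the enzyme 11β-HSD1 acts on hypertrophy of these cells. All 3 groups were transfected. The control group carried the empty vector, the HSD1 group an expression vector for 11β-HSD1, and the HSD1 plus BVT group the same expression vector together with BVT.2733, an inhibitor of the enzyme. Each group was 1 pool of cells read on 1 array, labelled with Cy3. No group received the inhibitor without the expression vector, and neither dose, exposure time nor pool size is stated in the labels. There is no replicate check of any difference between groups.

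The aryl hydrocarbon receptor is a transcription factor of the bHLH-PAS family that is held in the cytoplasm by chaperones until it binds a planar aromatic ligand or a tryptophan metabolite. It then enters the nucleus, pairs with ARNT and binds short response elements in its target genes, of which Cyp1a1 is the classic example, with Cyp1b1, Nqo1, Ahrr and Tiparp among the others. AHRR and TIPARP act back on the receptor as repressors. 11β-HSD1 turns inactive 11-keto glucocorticoids into their active form, and the glucocorticoid receptor binds response elements of its own.

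Promoter sequences from the RefSeq table of assembly GRCr8 are shown for Nqo1, called higher with the inhibitor, for Aldh1a3, called lower, and for Cyp1b1 and Ahrr, which hold the longer AHR element. Each is the 250 bases before the transcription start, written 5′ to 3′ on the gene's strand. Capitals mark the core of the AHR response element, GCGTG, where it reads on the strand shown, or CACGC where it reads on the other strand.
Cyp1b1, chr6:21094315-21094564, plus strand: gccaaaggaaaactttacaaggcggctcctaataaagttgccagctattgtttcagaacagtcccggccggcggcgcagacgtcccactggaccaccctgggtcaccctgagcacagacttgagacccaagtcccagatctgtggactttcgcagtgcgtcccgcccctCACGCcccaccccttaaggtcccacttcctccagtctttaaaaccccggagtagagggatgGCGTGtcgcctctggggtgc
Ahrr, chr1:30821969-30822218, plus strand: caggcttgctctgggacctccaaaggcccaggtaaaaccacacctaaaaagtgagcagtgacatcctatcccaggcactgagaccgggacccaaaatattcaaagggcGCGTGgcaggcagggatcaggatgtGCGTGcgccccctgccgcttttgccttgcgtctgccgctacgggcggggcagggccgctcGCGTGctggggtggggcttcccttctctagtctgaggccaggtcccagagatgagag
Nqo1, chr19:52220268-52220517, minus strand: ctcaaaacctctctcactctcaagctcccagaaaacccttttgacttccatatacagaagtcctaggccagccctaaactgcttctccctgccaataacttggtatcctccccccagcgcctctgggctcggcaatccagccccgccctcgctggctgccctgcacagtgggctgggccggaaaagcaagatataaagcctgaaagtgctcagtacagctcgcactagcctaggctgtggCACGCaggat
Aldh1a3, chr1:129427644-129427893, minus strand: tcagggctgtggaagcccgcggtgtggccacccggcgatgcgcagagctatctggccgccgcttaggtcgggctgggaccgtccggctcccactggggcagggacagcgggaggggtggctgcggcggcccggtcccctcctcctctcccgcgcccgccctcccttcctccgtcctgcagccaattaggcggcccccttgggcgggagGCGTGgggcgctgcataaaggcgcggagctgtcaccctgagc

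The search covered the 300 bases from 250 before to 50 after the start, on both strands. Of the 8 members with a promoter in the table, 7 held the core GCGTG and Ahr did not, while 29.7% of all 33469 promoters of that length held it. The members Cyp1a1 and Aldh3a1 had no promoter there and were not searched. Cyp1a2, a target of the receptor that is not a member, held no copy of the core. Ahrr had 3 copies of the core, at positions -142, -117 and -57 from the start. Por also had 3, Cyp1b1 had 2, and Nqo1, Aldh1a3, Arnt and Tiparp had 1 each. The longer element TNGCGTG, which contains the core and so overlaps it, was found once in Cyp1b1 and once in Ahrr, against 4.9% of all promoters. The members' windows were rich in G and C, from 56.3% in Nqo1 to 74.7% in Ahr, beside a median of 51.7% over all promoters, and the part of base composition in these matches was not tested. The glucocorticoid receptor half-site TGTTCT was found in Cyp1b1, at position -196 on the other strand, and in 20.7% of all promoters. The inverted pair of half-sites was found in none of the 8 members and in 5 of the 33469 promoters. Nqo1, called higher on the inhibitor array, and Aldh1a3, called lower, each held the core once. A match of letters describes the sequence and does not show that a factor binds there.

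Levels are the log2 of a probe's processed signal minus the log2 of the 75th percentile of signals on its array. A level of 0 is thus the brightness of a spot at that percentile, and a level can be compared between arrays for 1 gene but not between genes. A gene was called higher or lower when it differed 2-fold or more and was well above background on both arrays. The only error available is technical. For each probe printed 10 times per array, the SD of its single-spot log2 ratios was taken. The technical SD of a gene is the median of these SDs over the 100 such probes of nearest brightness. A gene's own scatter can be larger or smaller. For Cyp1a1 its own SD was 0.191 for the vector, beside a technical SD of 0.102. For the inhibitor against HSD1 it was 0.095, beside 0.11. The technical SD leaves out the spread between cultures, transfections, pools, labellings, arrays and scans.

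On the array of HSD1 plus BVT, Cyp1a1, Nqo1 and Aldh3a1 were called higher than in control and Aldh1a3 was called lower. Aldh3a1 was the member already called higher with the expression vector alone. Cyp1a1 and Nqo1 were called higher when the inhibitor array was set against the HSD1 array. Ahr, Ahrr, Cyp1b1 and Por were called in none of the 3 comparisons, and Arnt was not called in the 1 in which it was measured on both arrays.

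With the expression vector against control, 1 of 9 members was called higher and none lower. Of 11877 genes measured on both arrays, 1.88% were called, 1.34% higher and 0.539% lower. With the inhibitor against HSD1, 2 of 8 measured members were called higher and none lower, where 2.08% of 11707 genes were called, 1.5% higher and 0.581% lower. With vector and inhibitor against control, 3 of 8 were called higher and 1 lower, where 3.7% of 11721 genes were called, 2.95% higher and 0.751% lower. Because the members were chosen with these ratios known, the shares are set side by side and nothing is read from their difference. The split between higher and lower calls over all genes moved with the scaling. For the vector 71.3% of calls were higher, but 56.0% after quantile normalization and 54.9% after cyclic loess. For vector and inhibitor against control the share was 79.7%, but 55.7% and 61.4%. For the inhibitor against HSD1 it was 72.1%, but 33.9% when genes not well above background were counted too (520 higher and 1016 lower). Each array enters 2 of the 3 comparisons, so the comparisons share their values. The control and HSD1 arrays were read in scan 1 and that of HSD1 plus BVT by itself in scan 2, so the inhibitor and the scan cannot be told apart.

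**Figure D1:**
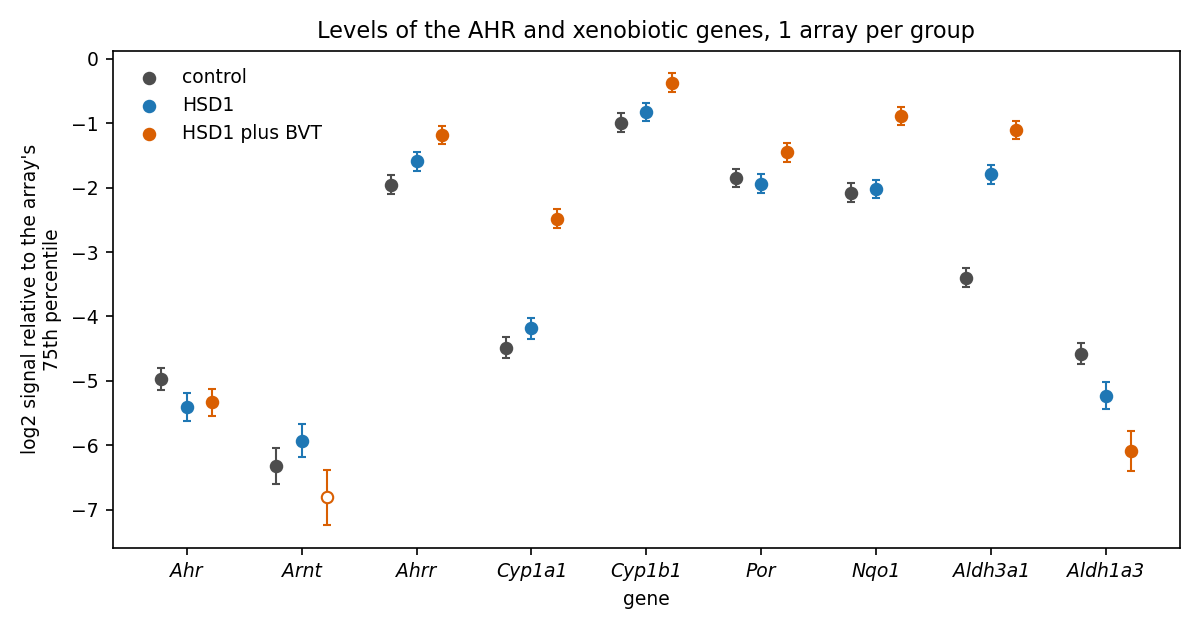
Level of each measured member on the 3 arrays (log2 signal relative to the 75th percentile of the array), 1 point per array, with bars for the scanner software's error of the signal and an open circle where the gene was not well above background. Cyp1a1 and Nqo1 stand apart on the HSD1 plus BVT array, Aldh3a1 climbs from -3.40 to -1.79 to -1.10, and Aldh1a3 descends from -4.58 to -5.23 to -6.10; heights of different genes cannot be compared.

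Ahr, the ligand-binding receptor, had low processed signals of 41.9 in control, 27.4 with HSD1 and 38.2 with HSD1 plus BVT. They were well above background and lay at percentiles 38.0, 31.2 and 31.8 among the probes of their arrays. After scaling, its levels were -4.98, -5.41 and -5.33. Control was the highest of the 3, and the HSD1 and inhibitor arrays lay close together. The log2 ratio was -0.43 for HSD1 against control and -0.36 for HSD1 plus BVT against control, beside technical SDs of 0.217 and 0.209 for probes this dim. The ratio for the vector ran from -0.67 to -0.0019 over the processing alternatives. For the inhibitor against HSD1 it was 0.07, and it ran from -0.29 to 0.12, so its sign depended on the processing.

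Arnt, the partner that the receptor needs to bind DNA, was the dimmest member. Its signals were 16.5 in control, 19.1 with HSD1 and 13.7 with HSD1 plus BVT, and the last of these was not well above background. The levels were -6.32, -5.93 and -6.81. For the vector the log2 ratio was 0.39 with a technical SD of 0.372, so this difference was of the size of the array's own error. For the inhibitor array only bounds can be given. From the signals alone, Arnt was at least 1.33-fold lower there than in HSD1 and at least 1.01-fold lower than in control. The technical SDs of these log2 ratios were 0.379 and 0.383, which the bounds do not allow for.

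Ahrr, which competes with the receptor for ARNT and represses its targets, had signals of 340.2 in control, 386.4 with HSD1 and 680.4 with HSD1 plus BVT. Its levels were -1.95, -1.59 and -1.18, lowest in control and highest with the inhibitor. It was 1.29-fold above control with the vector, 1.33-fold above HSD1 with the inhibitor and 1.71-fold above control with both. These log2 ratios of 0.36, 0.41 and 0.77 were each larger than their technical SDs of 0.062, 0.065 and 0.051 but under the 2-fold threshold. The promoter of Ahrr held 3 core elements, as did that of Por, and a link between core elements and ratios was not tested.

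The chaperones and coregulators of the receptor were listed with the ratios of these arrays known, as were all lists of genes used here. Of 14 such genes, 12 were measured and none was called in any of the 3 comparisons. Over all genes, 1.88% were called for the vector, 2.08% for the inhibitor against HSD1 and 3.7% for both against control. These shares stand beside the counts of this list and of every list below. Nothing is read from a short list without a call. The median log2 ratios of the list were 0.08 for the vector, 0.0097 for the inhibitor against HSD1 and 0.036 for both against control, beside 0.061, 0.0063 and 0.054 over all genes. The most extreme of the list were Nrip1, a nuclear corepressor, at 0.44 with the vector and 0.27 with both, and Hif1a at 0.33 for the inhibitor. Hif1a is the hypoxia factor that also pairs with ARNT. The ratio of Nrip1 with both was 0.16 with normexp, 0.15 with cyclic loess, and 0.11 with quantile normalization and in the authors' deposited table.

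In the wider bHLH-PAS family, 12 of 16 genes on the array were measured and 11 of 12 had a ratio above 0 with the vector (median 0.31), as did 7137 of the 11877 genes of that comparison. Epas1, a hypoxia-inducible factor, was called 2.28-fold higher with the vector, but its log2 ratio was 0.96 with normexp, under the threshold. Npas1, a neuronal member, was not well above background in HSD1 or HSD1 plus BVT and was at least 2.52-fold and 2.44-fold lower there than in control. With normexp its log2 ratios were -0.35 and -0.59, under the threshold. For the inhibitor against HSD1 the median was 0.024 with no gene called, and Epas1 stood at -0.50. For both against control it was 0.34, again with no gene called among those measured on both arrays, and Per1, a clock gene, had the largest ratio, 0.73 (0.25 with normexp).

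Cyp1a1, the monooxygenase most often used as a readout of the receptor, was low on the first 2 arrays and higher on the third. Its probe was printed at 10 places on each array. The 10 signals ran from 51.9 to 66.2 in control (median 58.8), from 53.1 to 71.5 with HSD1 (median 65.6) and from 252.6 to 295.3 in HSD1 plus BVT (median 276.3). The spots of control and HSD1 overlapped, and every spot of the inhibitor array was above all spots of the other arrays. The mean levels were -4.49 ± 0.106 in control, -4.19 ± 0.132 with HSD1 and -2.48 ± 0.070 in HSD1 plus BVT (SD over 10 spots of 1 array).

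With the vector alone, Cyp1a1 had a log2 ratio of 0.30 ± 0.191 (SD over 10 spots), with 9 of 10 spots above 0 and none at 2-fold. With the inhibitor against HSD1 the ratio was 1.70 ± 0.095, a 3.26-fold increase, and single spots ran from 2.97-fold to 3.77-fold. Against control it was 2.005 ± 0.148, or 4.01-fold, and single spots ran from 3.26-fold to 4.86-fold. All 10 spots were past 2-fold in both comparisons with the inhibitor array. Among all genes, 29 rose more than Cyp1a1 for the inhibitor against HSD1 and 33 for both against control. The spots of an array share 1 RNA pool, 1 labelling and 1 scan, so their SD covers the scatter between spots alone. It leaves out differences between cultures, labellings, arrays and scans. The ratio depended on the processing. With the normexp correction, run in a form that was set after the data were seen, it was 0.95 against HSD1, under the threshold. Against control the normexp ratio was 1.20, past the threshold. The part of the low signal in this was not tested.

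**Figure D2:**
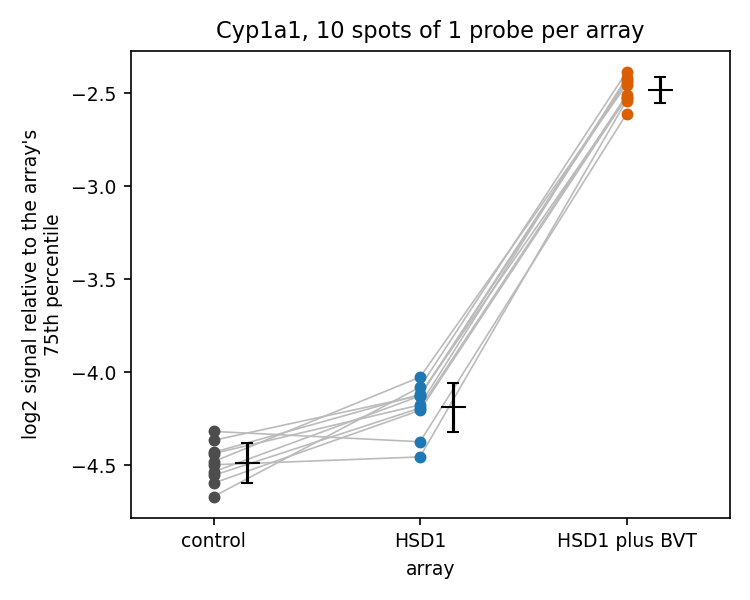
Level of the Cyp1a1 probe at each of its 10 spots on the 3 arrays (log2 signal relative to the 75th percentile of the array), with grey lines joining the same place on each array and black bars for the mean and SD over the spots. The control and HSD1 spots overlap, and all 10 spots of the HSD1 plus BVT array lie above them.

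Cyp1a2, the close relative of Cyp1a1 and a target of the same receptor, is not a member but was read by 1 spot. Its signals were 3.52 in control and 6.20 in HSD1, neither well above background, and 57.4 in HSD1 plus BVT. It was at least 3.12-fold higher with the inhibitor than in HSD1 and at least 3.77-fold higher than in control. These bounds hold for the signal as the scanner software corrected it, and with normexp the log2 ratios were 0.17 and 0.44, under the threshold. Whether the Cyp1a1 and Cyp1a2 probes bind each other's transcripts was not tested.

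Cyp1b1, a P450 that oxidises steroids and aromatic hydrocarbons, was brighter. Its signals were 665.1 in control, 657.4 with HSD1 and 1196 with HSD1 plus BVT, and its levels were -0.99, -0.82 and -0.37. The order of the arrays was that of Cyp1a1, with control lowest and the inhibitor highest, but the size was smaller. The gene was 1.12-fold above control with the vector, 1.37-fold above HSD1 with the inhibitor and 1.54-fold above control with both. The technical SDs of these ratios were 0.057, 0.063 and 0.043 (log2), and all 3 ratios stayed under the threshold, over alternatives that ran from 0.54 to 0.62 for the last.

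Por, the flavoprotein that hands electrons to all microsomal P450 enzymes, had signals of 366.4 in control, 303.8 with HSD1 and 564.1 with HSD1 plus BVT. Its levels were -1.85, -1.94 and -1.45, so control and HSD1 were close and the inhibitor array was highest. The log2 ratio was -0.09 for the vector, 0.49 for the inhibitor against HSD1 and 0.40 for both against control, with technical SDs of 0.061, 0.067 and 0.051. None was called.

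The other genes of electron transfer and haem turnover around the P450 enzymes were 10 in number, all measured. For the vector none was called, the median was 0.094 and Cyb5r1, a cytochrome b5 reductase, had the largest ratio, 0.42. Hmox1, the haem oxygenase induced by oxidative stress, was called higher on the inhibitor array in both comparisons. Its signals were 705.4 in control, 572.7 with HSD1 and 1765 with HSD1 plus BVT, which is 2.33-fold above HSD1 and 2.14-fold above control. With normexp the log2 ratio to control was 0.99, just under the threshold. The medians of the list for these comparisons were 0.14 and 0.17.

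Of 26 other cytochrome P450 genes on the array, 18 were measured for the vector and 17 for the other comparisons. None was called for the vector (median 0.089), where Cyp26b1, which breaks down retinoic acid, had the largest ratio at 0.95. None was called for the inhibitor against HSD1 (median 0.16). For both against control 14 of 17 were above 0 and 1 was called (median 0.31), and 6904 of all 11721 genes were above 0. That gene was Cyp2d4, at 2.02-fold, and 5 of the processing alternatives put it under 2-fold.

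Nqo1, the quinone reductase that the receptor and the oxidative stress factor NRF2 both induce, was flat between the first 2 arrays and higher on the third. Its signals were 312.8 in control, 287.1 with HSD1 and 835.9 with HSD1 plus BVT, and its levels were -2.08, -2.02 and -0.88. The vector gave a log2 ratio of 0.056 with a technical SD of 0.062. The inhibitor against HSD1 gave 1.14 with a technical SD of 0.066, a 2.20-fold increase, and 120 genes rose more. Both against control gave 1.19 with a technical SD of 0.051, a 2.29-fold increase, and 193 genes rose more. With the normexp correction the ratio against HSD1 was 0.98, just under the threshold, and that against control was 1.01.

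Aldh3a1, which oxidises aromatic and lipid aldehydes and is induced through the receptor in liver and tumour cells, rose in steps. Its signals were 125.3 in control, 336.4 with HSD1 and 718.4 with HSD1 plus BVT. Each array was higher than the one before it in that order. It was 3.04-fold higher than control with the vector (log2 ratio 1.60, technical SD 0.066), and 35 genes rose more. It stood 1.61-fold above HSD1 with the inhibitor (0.69, technical SD 0.073), under the threshold, and 4.90-fold above control with both (2.29, technical SD 0.055), where 16 genes rose more. Over the alternatives the ratios ran from 1.23 to 1.60, from 0.58 to 0.69 and from 1.81 to 2.29, so no other scaling, correction or filter moved it across 2-fold.

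Aldh1a3, which makes retinoic acid from retinaldehyde, went the other way. Its signals were 55.1 in control, 31.0 with HSD1 and 22.5 with HSD1 plus BVT, and the last was close to 19.0, the lowest signal well above background on its array. Each array was lower than the one before it. It stood 1.57-fold below control with the vector and 1.82-fold below HSD1 with the inhibitor, both under the threshold, and was 2.86-fold lower than control with both. The log2 ratios were -0.65, -0.87 and -1.52 with technical SDs of 0.222, 0.228 and 0.218. With the normexp correction the last ratio was -0.71 and the gene was no longer called, and the vector's ratio was -0.087. Of all genes, 21 fell more for both against control.

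**Figure D3:**
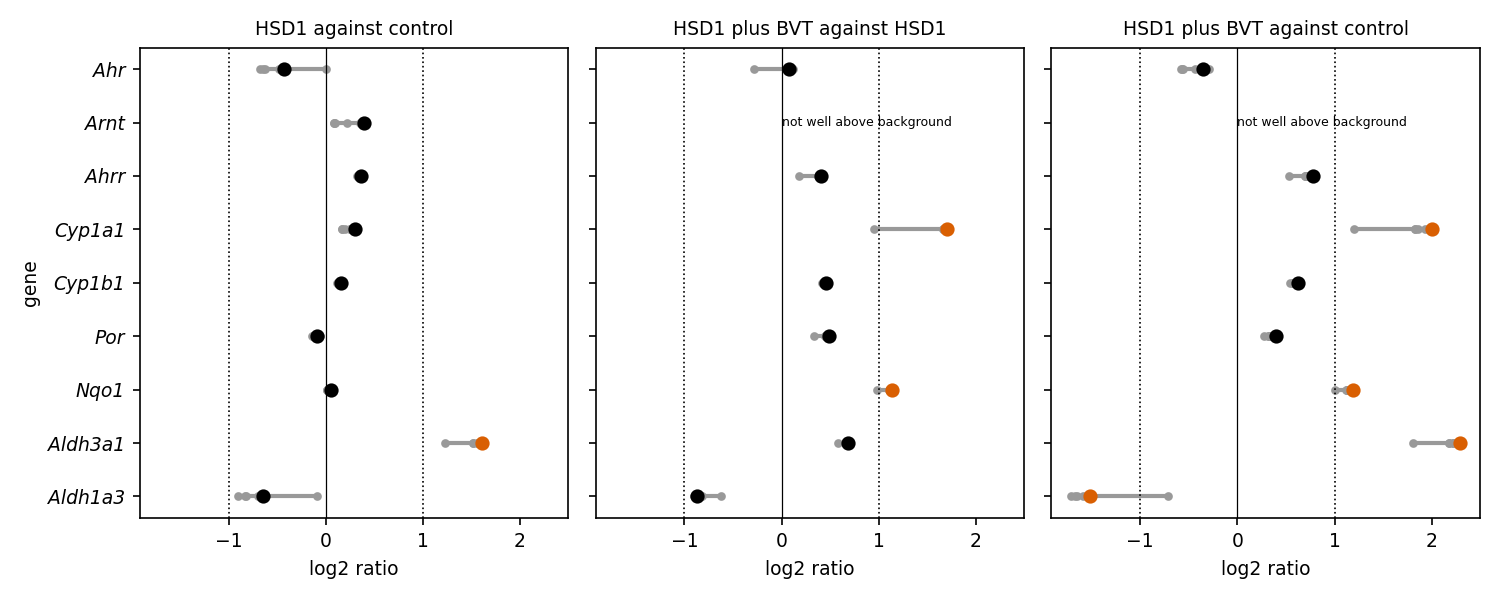
Log2 ratio of each measured member in the 3 comparisons: large points are the values given in the text (orange where called 2-fold), small grey points and bars the values under the processing alternatives, and dotted lines 2-fold. Cyp1a1, Nqo1 and Aldh3a1 lie to the right of the 2-fold line against control with the inhibitor, Aldh1a3 to the left, and the grey points of Cyp1a1 and Aldh1a3 reach furthest toward 0.

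The called members showed unlike patterns across the arrays. For Cyp1a1 the step from control to HSD1 was 0.30 and that from HSD1 to HSD1 plus BVT 1.70, and for Nqo1 the steps were 0.056 and 1.14. For Aldh3a1 the larger step was the one with the vector, 1.60 of the 2.29 log2 units. For Aldh1a3 the steps were -0.65 and -0.87. Of the 8 members measured throughout, Cyp1a1, Cyp1b1, Ahrr, Nqo1, Aldh3a1 and Por had a ratio above 0 for both against control, and Ahr and Aldh1a3 were below 0. The authors' deposited table of log2 values gave the same order of the arrays for Cyp1a1 (6.03, 6.19 and 7.86), Nqo1 (8.36, 8.38 and 9.49), Aldh3a1 (7.09, 8.61 and 9.27) and Aldh1a3 (5.94, 5.12 and 4.29).

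Genes with patterns like those of the 4 called members were found by the distance between their log2 ratios of HSD1 and of HSD1 plus BVT to control, over 11587 named genes and 3 arrays. Nearest to Cyp1a1 were Alas2, the erythroid enzyme that starts haem synthesis, with ratios of 0.394 and 1.995, and Zmat4, with 0.27 and 2.10. Nearest to Nqo1 were the olfactory receptor genes Or1e21 (0.083 and 1.20) and Or5h17b (0.064 and 1.16). Aldh3a1 had no close neighbour: Or52l1, an olfactory receptor gene, and Adh1c, an alcohol dehydrogenase, lay at distances of 0.467 and 0.472, compared with 0.095 for Alas2 and 0.029 for Or1e21. Nearest to Aldh1a3 were Scg2, a granin of secretory vesicles (-0.67 and -1.39), and Mlf1 (-0.79 and -1.60). Olfactory receptor genes form a large family of similar sequence, so their probes may not read 1 gene alone. With 2 ratios per gene, many genes can lie close to a member.

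Other target genes of the receptor gave 1 call in each of 2 comparisons, both of the same gene. Cyp1a2, also in this list, had the bounds given above, at least 3.12-fold and 3.77-fold higher on the inhibitor array. With normexp its ratios were under the threshold. Of 14 target genes on the array, 12 were measured on both arrays. Their medians were -0.10 for the vector, 0.073 for the inhibitor against HSD1 and 0.032 for both against control. Gsta2, a glutathione transferase, had signals of 249.9 in control, 85.6 with HSD1 and 442.6 with HSD1 plus BVT. It was 2.58-fold lower than control with the vector and 3.90-fold higher than HSD1 with the inhibitor, and at 1.51-fold above control with both it was not called. With normexp the ratio for the vector was -0.88 and that call was lost. The glutathione transferases of this class are near-identical in sequence, so the probe may read more than 1 of them.

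Among the conjugating and hydrolysing enzymes, 13 of 21 on the array were measured, with medians of 0.23, 0.054 and 0.24 in the same order of comparisons. Sult1a1, a phenol sulfotransferase, was 7.41-fold higher than control with the vector and 6.27-fold higher with both. Ces1d, a carboxylesterase, was 2.25-fold higher with the inhibitor than in HSD1 and 4.02-fold higher than in control, and the first of these calls was lost with normexp (log2 ratio 0.74). Sult1c3, not well above background in control, had a bound of at least 2.31-fold higher in HSD1, but its log2 ratio was under the threshold with quantile normalization (0.94), cyclic loess (0.88) and normexp (0.37) and in the authors' deposited table (0.91).

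The xenobiotic nuclear receptors and transporters had 12 of 14 genes measured and medians of -0.043, 0.13 and -0.043. Nr1i2, which encodes the pregnane X receptor, was 2.40-fold higher than control with the vector and 2.94-fold higher with both, and both calls were lost with normexp (0.77 and 0.81). Abcc2, an efflux pump for conjugates, was 2.26-fold higher than control with both. Its SD over 9 spots was 0.497 on the log2 scale, and it fell under 2-fold after quantile normalization (0.91), cyclic loess (0.98) and normexp (0.24) and in the authors' deposited table (0.76). For the inhibitor against HSD1 none was called, and Abcc2 had the largest ratio, 0.86, which was 0.0089 with normexp and had an SD of 0.61 over its spots.

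The remaining families of Aldh3a1, Aldh1a3 and Tiparp were mostly under the threshold, as were most genes on the array. Over all genes 1.88% were called for the vector, 2.08% for the inhibitor against HSD1 and 3.7% for both against control. None of the other aldehyde dehydrogenases was called, with 13 measured for the vector and 12 for the other comparisons and medians of 0.060, -0.0029 and 0.0097. Among those measured on both arrays, the most extreme ratios were -0.82 for Aldh1l2 with the vector (-0.26 with normexp), 0.33 for Aldh3b1 with the inhibitor against HSD1, and -0.92 for Aldh1a2, which also makes retinoic acid, with both. Aldh1b1 was not well above background with the inhibitor and was at least 1.95-fold lower there than in HSD1. None of 9 measured genes of the PARP family, to which Tiparp belongs, was called, with medians of -0.053, 0.24 and 0.015. Parp9, an interferon-induced member, stood at -0.75 with the vector and 0.63 with the inhibitor against HSD1 (0.41 with normexp), and Parp14 at -0.37 with both.

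**Figure D4:**
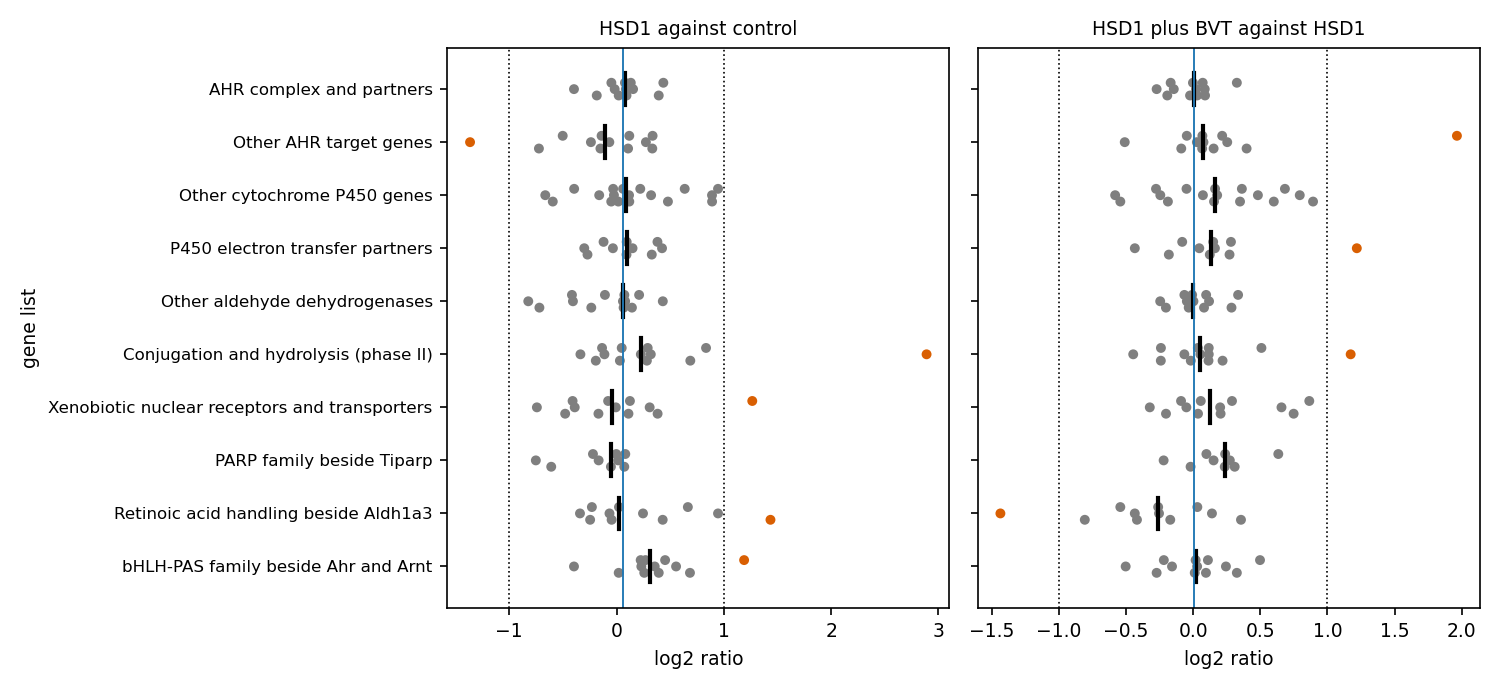
Log2 ratio of each measured gene in the 10 related lists, for HSD1 against control and for HSD1 plus BVT against HSD1: 1 point per gene (orange where 2-fold or more), black bars for the list medians, the blue line for the median of all genes and dotted lines for 2-fold. Most points lie between the dotted lines, with Gsta2 to the left in the first panel and to the right in the second.

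The cultures carried markers of several cell types. All 10 cardiomyocyte markers, among them Myh6 and Tnnt2, were well above background on every array, and so were all 10 fibroblast markers. The summed level of the cardiomyocyte markers, in units of the array's 75th percentile, was 314.6 in control, 349.8 with HSD1 and 354.6 with HSD1 plus BVT, and that of the fibroblast markers 195.6, 195.2 and 186.0. The endothelial sum was 5.27, 8.15 and 9.72 over 8 genes, of which 6 were well above background and Emcn and Cldn5 were not on any array. The smooth muscle and pericyte sum was 41.9, 47.8 and 36.8 with all 9 detected, and the epithelial and mesothelial sum 1.972, 1.893 and 1.496 with all 7. The macrophage sum was 12.6, 18.4 and 14.1 with 8, 9 and 8 of 10 detected and C1qa on none. The hepatocyte sum was 1.37, 2.43 and 2.27 with 5 of 7 detected, and its defining markers Alb and Apoa1 were not well above background on any array. The cardiomyocyte, endothelial, macrophage and hepatocyte sums were all higher on both vector arrays than in control, as Aldh3a1 was, and their part in the members' ratios was not tested. The macrophage sum rests mostly on Lyz2, with levels of 3.51, 4.09 and 3.65, and the hepatocyte sum mostly on Tf and Ttr. For the vector, 6 of 8 measured macrophage markers had a ratio above 0 and 2 below, beside 7137 of 11877 genes above 0. The endothelial sum rests mostly on Kdr, with levels of 2.27, 2.89 and 3.19. Between HSD1 and HSD1 plus BVT, 4 of the 6 measured endothelial markers had a ratio below 0, with a median of -0.20. In bulk RNA, fewer cells of a type and less RNA per cell cannot be told apart.

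The array measurements were similar in quality. Between 81.2% and 82.5% of spots were well above background, none was saturated, and the 75th percentile of signals was 1319 in control, 1164 with HSD1 and 1543 with HSD1 plus BVT. Hsd11b1, the rat gene of 11β-HSD1, had levels of 3.39, 3.86 and 3.77, a log2 ratio of 0.48 for the vector that was not called. The labels do not say from which species the vector's insert came, so the probe may or may not detect the transfected transcript. Large ratios were more common among dim genes. With genes put into 4 equal groups by signal, 8.05% were called for both against control in the dimmest, 3.34% in the next, 2.46% in the third and 0.956% in the brightest. Aldh1a3 lay in the dimmest group, Cyp1a1 and Aldh3a1 in the next and Nqo1 in the third.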

How the data were processed

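Total RNA of 3 pools of cells, 1 per group, was read on 1-colour arrays. Per the file headers and the submitters' processing notes, the authors extracted the images with Agilent Feature Extraction 11.0.1.1; the deposited intensity of a spot is its processed signal, background-subtracted and on a linear scale. A second deposited file gives the authors' log2 values for 30423 probes, with the same median in each column. It correlated with the log2 signals at r = 0.999, so its scale is log2 and it is not centred per gene, while how it was normalized is not stated in the labels.

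Control spots and outlier spots (311, 409 and 363) were left out, log2 signals were scaled to each array's 75th percentile, and spots of a probe were averaged (Python 3.11.15, pandas 2.3.3). Of 30367 probes, 18005 matched 1 gene through RefSeq accessions of assembly GRCr8; of 15168 genes, 12568 had 1 probe, and the brightest was used otherwise. The array was annotated on another build, so no probe coordinates are given. Where a gene was well above background on 1 of 2 arrays, the fold is a bound: on the array where it was too dim, the gene was set to that array's lowest detected signal or to its own, whichever was brighter. A bound does not allow for the technical error.

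With 1 array per group no test was run, and precision is limited by the number of arrays. The calling of genes was run on simulated ratios with set changes, which checks the calculation and not the calls made on these arrays. The members and all gene lists were chosen with earlier results of these data known. The genes named are the members, up to 2 called genes per list, comparison and direction or else the most extreme one, bounds of 2-fold or more, the 2 genes nearest each called member, and Hsd11b1. Alternatives were quantile normalization, cyclic loess, median scaling, normexp (limma 3.58.1, R 4.3.3, in a form chosen after seeing the data), the deposited table, outlier spots kept, no filter on dim probes, the mean of all probes, and 1.5-fold and 3-fold thresholds. Protein identity between members was not analysed here.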

Additional observations from a re-analysis of the deposited data

How the results depend on the processing

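Under the alternatives 197 values of the members kept their side of the 2-fold threshold and 3 did not, and the sign changed for Ahr alone, in the inhibitor against HSD1 (-0.29 to 0.12). These 3 came with normexp, which adds an offset of 50 to each signal. They were Cyp1a1 and Nqo1 for the inhibitor against HSD1 (0.95 and 0.98) and Aldh1a3 for both against control (-0.71). The offset and the background correction were applied together, and the part of each was not tested. The planned normexp, fitted over all spots, gave a background mean of -1144 on the HSD1 array, where 5 spots were dimmer than their surroundings, so it was refitted without such spots after the data were seen. The number of called genes moved by over 1.5 times for the vector, the inhibitor against HSD1 and both against control with normexp (93, 77 and 133), without the filter on dim probes (1099, 1536 and 1453), at 1.5-fold (946, 1064 and 1604) and at 3-fold (52, 48 and 90).

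List medians are given here minus the median of all genes. The median technical SD of a single-spot ratio was 0.063, 0.070 and 0.049 in the order of comparisons. Relative to the main processing, 209 values shifted by no more than this SD while 31 shifted by more. For the vector, the others were -0.035 for other P450 genes and -0.12 for aldehyde dehydrogenases with quantile normalization, -0.13 for the latter with cyclic loess, and -0.036 and -0.12 for both in the authors' deposited table. With normexp they were -0.042 for the receptor complex, -0.016 for xenobiotic receptors and transporters and 0.18 for the bHLH-PAS family. Without the filter they were -0.082 for other AHR targets and 0.044 for retinoic acid genes, and with the mean over probes -0.088 and 0.066. For the inhibitor against HSD1, normexp gave 0.091 for the receptor complex, 0.043 for other P450 genes, 0.21 for electron transfer partners and -0.071 for phase II enzymes, and no filter gave 0.064 for other P450 genes. For both against control, phase II enzymes stood at 0.11 with quantile normalization (0.1145), cyclic loess (0.1121) and the deposited table (0.1114), and at 0.019 with normexp. PARP genes stood at 0.013 with quantile normalization (0.0133) and in the deposited table (0.0131). With normexp, other P450 genes stood at 0.13 and the bHLH-PAS family at 0.21. Without the filter, other AHR targets stood at 0.051, xenobiotic receptors and transporters at -0.036, retinoic acid genes at -0.18 and the bHLH-PAS family at 0.22. With the mean over probes, retinoic acid genes stood at -0.10 and the bHLH-PAS family at 0.22 (0.2164). The causes were not tested.

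No paired analysis was possible because each group has 1 array, and for the same reason no array could be left out. Dim signals limit Ahr, Arnt and Aldh1a3: their technical SD was at least 0.209 on the log2 scale, compared with at most 0.073 for Ahrr, Cyp1b1, Por, Nqo1 and Aldh3a1.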

Other observations

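Genes that bind, carry or break down retinoids were listed beside Aldh1a3, with its ratios known. Of 13 on the array, 11 were measured on both arrays of each comparison. With the vector 6 of 11 had a ratio above 0 and the median was 0.023. For the inhibitor against HSD1 the median was -0.26 and for both against control it was -0.20, with 8 of 11 below 0 in each. These 2 comparisons share the inhibitor array. Over all genes the medians of the 3 comparisons were 0.061, 0.0063 and 0.054. Above 0 were 7137 of 11877, 5990 of 11707 and 6904 of 11721 genes. Crabp1, which binds retinoic acid in the cytoplasm, had signals of 46.2 in control, 110.2 with HSD1 and 54.0 with HSD1 plus BVT over 10 spots. It was 2.70-fold higher than control with the vector (SD of the log2 ratio over spots 0.094) and 2.71-fold lower than HSD1 with the inhibitor (SD 0.099). Between the control and inhibitor arrays its log2 ratio was -0.0011, and from -0.22 with quantile normalization to 0.16 with outlier spots kept, so its sign depended on the processing. With normexp the ratios of the called comparisons were 0.82 and -0.92, under the 2-fold threshold. Rbp4, the plasma carrier of retinol, had signals of 350.7, 261.0 and 197.6 and was called 2.08-fold lower than control with both, but its ratio was -0.92 with normexp.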
